A study of Homo sapiens with 16 samples.

Results

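The genes described are the 10 receptor tyrosine kinase genes of the MET, ERBB and FGF receptor families, out of the 35810 genes to which the deposited transcripts could be joined. They are MET and MST1R, then EGFR, ERBB2, ERBB3 and ERBB4, and FGFR1, FGFR2, FGFR3 and FGFR4. They were chosen by family, on levels in these data that were already known, so the number of them that changed supports nothing by itself. MET was also one of the genes that the study named partly from its rise at 6 h in these libraries, so its change at 6 h is given as a description without a test.

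To follow the transcriptome while actin was depolymerised, RNA was sequenced from 16 libraries of pancreatic progenitors made in culture from the SA121-derived NGN3-GFP human embryonic stem cell line. That line carries a GFP reporter for NEUROG3, the transcription factor that starts endocrine specification, and it stands for 1 genetic background. Cells at day 19 received latrunculin B (LatB), a compound that sequesters actin monomers, at 0.5 µM for 3 h (n = 3), 6 h (n = 3), 12 h (n = 2) or 24 h (n = 3). The controls without the drug were taken at 0 h (n = 3) and at 24 h with the vehicle DMSO (n = 2). The labels tag the 0 h control as DMSO too, whereas the series text places its harvest before treatment. No vehicle library of 3, 6 or 12 h was analysed here, so drug and elapsed time cannot be told apart at those times. The labels do not say that replicates came from separate cultures, so p-values measure the spread between these libraries, which may be technical.

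These receptors span the membrane and pair up when a ligand binds outside the cell, which lets their kinase domains phosphorylate each other and recruit adaptors to the RAS-MAPK and PI3K pathways. MET binds hepatocyte growth factor, the ERBB receptors bind the EGF and neuregulin ligands, and the FGF receptors bind fibroblast growth factors together with heparan sulphate or Klotho co-receptors. In the developing pancreas, FGF10 from the mesenchyme acts through the IIIb form of FGFR2 to maintain progenitor growth, and EGF receptor signalling takes part in the formation of the endocrine lineage.

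FGFR1, FGFR2 and FGFR3 transcripts each hold one of a pair of neighbouring exons, named IIIb and IIIc, that encode the last part of the third immunoglobulin domain and set which FGFs bind. The IIIb form of FGFR2 is the one that binds FGF7 and FGF10, so the results below separate FGFR2 transcripts by this pair.

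The start regions of 3 genes are printed because MET and EGFR rose together early and FGFR3 fell at every time. Each is the RefSeq region (GRCh38.p14) from 250 bases before to 50 bases after a start of the gene, and in each that start is the 5′ end of the gene's most abundant transcript. The MET region is chr7:116671946-116672245, the EGFR region chr7:55018767-55019066 and the FGFR3 region chr4:1793043-1793342, all on the plus strand. Capitals mark the GC box, GGGCGG, which reads CCGCCC where it lies on the other strand.
MET: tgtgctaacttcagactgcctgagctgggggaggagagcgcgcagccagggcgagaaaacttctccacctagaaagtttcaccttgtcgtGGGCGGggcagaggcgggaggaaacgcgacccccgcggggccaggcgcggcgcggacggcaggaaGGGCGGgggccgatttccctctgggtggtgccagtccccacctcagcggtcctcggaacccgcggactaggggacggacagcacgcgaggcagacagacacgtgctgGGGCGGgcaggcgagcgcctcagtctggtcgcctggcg
EGFR: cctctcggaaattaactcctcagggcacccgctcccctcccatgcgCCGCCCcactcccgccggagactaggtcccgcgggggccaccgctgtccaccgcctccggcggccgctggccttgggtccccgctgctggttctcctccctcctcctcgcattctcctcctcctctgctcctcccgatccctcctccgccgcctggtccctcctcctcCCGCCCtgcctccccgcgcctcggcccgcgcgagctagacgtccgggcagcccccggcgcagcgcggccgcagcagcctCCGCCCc
FGFR3: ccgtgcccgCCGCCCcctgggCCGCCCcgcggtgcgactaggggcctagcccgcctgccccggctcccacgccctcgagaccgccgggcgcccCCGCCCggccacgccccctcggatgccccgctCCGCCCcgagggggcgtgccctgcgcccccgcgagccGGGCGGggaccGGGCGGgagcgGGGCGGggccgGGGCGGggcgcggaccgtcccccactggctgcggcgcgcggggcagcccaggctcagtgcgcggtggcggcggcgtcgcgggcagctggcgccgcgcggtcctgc
The MET region held 3 GC boxes, the EGFR region 3 and the FGFR3 region 8, and 45% of the 35116 RefSeq start regions of this length held at least 1. The base composition was 69.3% G or C for MET, 75.3% for EGFR and 86.3% for FGFR3, with a median of 58.7% over all regions. The letters GGAATG (TEAD), TGANTCA (AP-1) and TGTTTAC (forkhead), and the CArG box of serum response factor, were searched on both strands and were not in these windows. EGFR has another RefSeq start region, which held 1 TEAD and 2 AP-1 matches and no GC box and is not that of the most abundant transcript. The TEAD, AP-1, forkhead and CArG letters were present in 14%, 7.71%, 3.42% and 1.29% of all start regions, in that order. Of the 10 genes, 8 matched this RefSeq table, and ERBB3 and FGFR1 did not.

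The libraries held from 23609727 to 33515398 estimated reads, and mitochondrial genes took from 2.36% to 5.39% of them. The summed level of 5 epithelial genes (EPCAM, CDH1, KRT8, KRT18 and CLDN4) ran from 6232 to 6711 CPM (the reads of a gene in proportion to the scaled total of its library) in the 5 controls, from 4759 to 5889 at 3 and 6 h and from 3233 to 4276 at 12 and 24 h. EPCAM alone was at 844 to 894 CPM at 0 h and 859 to 897 CPM in control 24 h. With LatB it was at 897 to 963 CPM at 3 h and 1027 to 1042 CPM at 6 h. Its later levels were 731 to 927 CPM at 12 h and 793 to 854 CPM at 24 h. Of 11 progenitor genes, RBPJL and PTF1A were under 1 CPM in every library, and the list summed to between 2094 and 3682 CPM. The replicates of 12 h stood apart from each other: 7 mesenchymal genes summed to 221 CPM in replicate 1 and 1059 CPM in replicate 2, against 172 to 447 CPM in all other libraries. The sum of 5 hepatocyte genes came to 910 CPM in replicate 1 and 2226 CPM in replicate 2, and that of 5 duct genes to 2784 and 1470 CPM. The called or tested changes of the receptor genes at 12 h are therefore given with and without each replicate, and those of other genes where a replicate decides the call. At 6 h the epithelial sum lay below the controls while EPCAM, 1 of its 5 genes, lay above them. In these bulk libraries, fewer cells of a type, less RNA per cell and changes of single marker genes cannot be told apart.

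Levels between genes were compared in TPM, which is scaled to transcript length and was summed over all transcripts of a gene. Transcripts not classed as protein coding held 52.4% to 62.5% of FGFR1 TPM at 0 h. They held 33.2% to 41.9% of FGFR3, 17.7% to 28.9% of FGFR4 and 3.01% to 4.33% of FGFR2. At 0 h, FGFR4 had the highest level with a mean of 173 TPM, followed by FGFR3 at 156, FGFR2 at 128 and FGFR1 at 106 TPM. The libraries of FGFR4 and FGFR3 overlapped, as did those of FGFR3 and FGFR2, while FGFR2 lay above FGFR1 in every library of the group. ERBB3, the kinase-impaired neuregulin receptor, followed at 82.7 TPM. ERBB2, the partner receptor without a ligand of its own, was at 65.7 TPM and EGFR at 38.0 TPM. MET was at 8.36 TPM, and ERBB4 and MST1R at 0.790 and 0.161 TPM.

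That order changed under LatB. At 6 h FGFR2 led with 180 TPM, above FGFR4 at 159.8 TPM, and EGFR at 84.7 TPM had passed FGFR3 at 60.5 TPM, in each case without overlap between libraries. MET, at 43.9 TPM, lay beside ERBB2, at 39.6 TPM, and their libraries overlapped. At 24 h FGFR4 (133 TPM) and FGFR1 (123 TPM) led with overlapping libraries, and FGFR3 had dropped to 40.8 TPM beside EGFR at 40.5 TPM. Transcripts not classed as protein coding held 59.8% to 66.3% of FGFR1 TPM at this time. Their part was 17.5% to 21.7% in FGFR4 and 1.74% to 11.5% in FGFR2. The order by coding transcripts alone was not tested. Among 58 receptor tyrosine kinase genes, MET stood at place 23 by mean TPM at 0 h, place 10 at 6 h and place 19 at 24 h of LatB. The summed TPM of the 4 FGF receptors ran from 520 to 596 at 0 h, from 546 to 596 in the 24 h control and from 366 to 383 at 24 h of LatB.

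**Figure D1:**
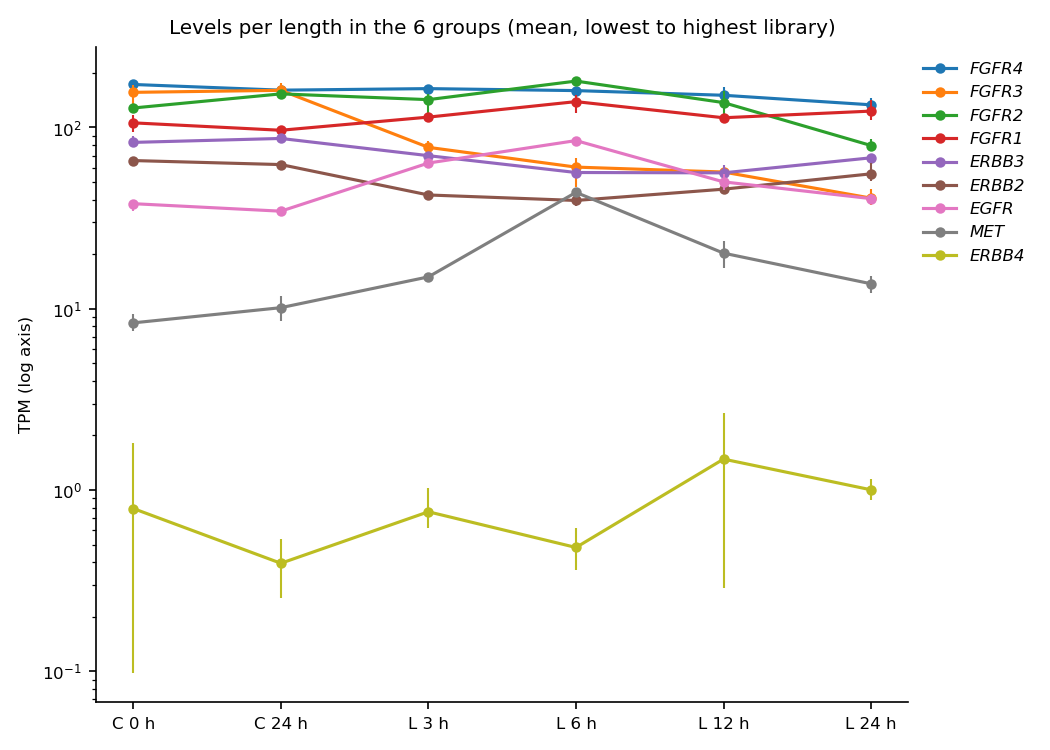
Mean TPM on a log axis of 9 receptor genes in the 2 control groups (C) and the 4 latrunculin B groups (L), with vertical lines from the lowest to the highest library. MET climbs from 8.36 TPM at 0 h to 43.9 TPM at 6 h, FGFR3 drops from 156 TPM at 0 h to 40.8 TPM at 24 h of the drug, and ERBB4 stays at or below 2.67 TPM.

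Of the 10 genes, 9 passed the filter on low counts. MST1R, the receptor of macrophage-stimulating protein, did not: it had at most 8 estimated reads in a library, or 0.350 CPM, and was not tested. At 3 h, 3 of the 9 were called higher and 2 lower than control 0 h by edgeR (adjusted p under 0.05), while 16.8% of all 16705 genes tested were called higher and 14.7% lower. At 6 h, 4 were higher and 3 lower, against 22.9% and 20.4% of all genes. At 12 h, 2 were higher and 3 lower, against 19.1% and 16.8%. At 24 h of LatB against control 24 h, 1 was higher and 3 lower, against 21.9% and 18.8%. Between the controls, 24 h against 0 h, 0 of the 9 were called in either direction by edgeR, DESeq2 and each other fit tried, and 0 had an unadjusted p under 0.05 in edgeR, where 0.0299% of all genes were called higher and 0.221% lower. MET is among the genes counted at 6 h. The comparisons at 3, 6 and 12 h share the control 0 h libraries. The median log2 fold change of the 9 genes was 0.21 at 3 h, 0.10 at 6 h, 0.06 at 12 h and -0.10 at 24 h, beside medians of all genes between -0.01 and 0.01. Without scaling between libraries the balance of all genes moved, to 1931 higher and 3411 lower at 3 h and 2708 and 4475 at 6 h, in place of 2810 and 2461 and of 3819 and 3411.

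**Figure D2:**
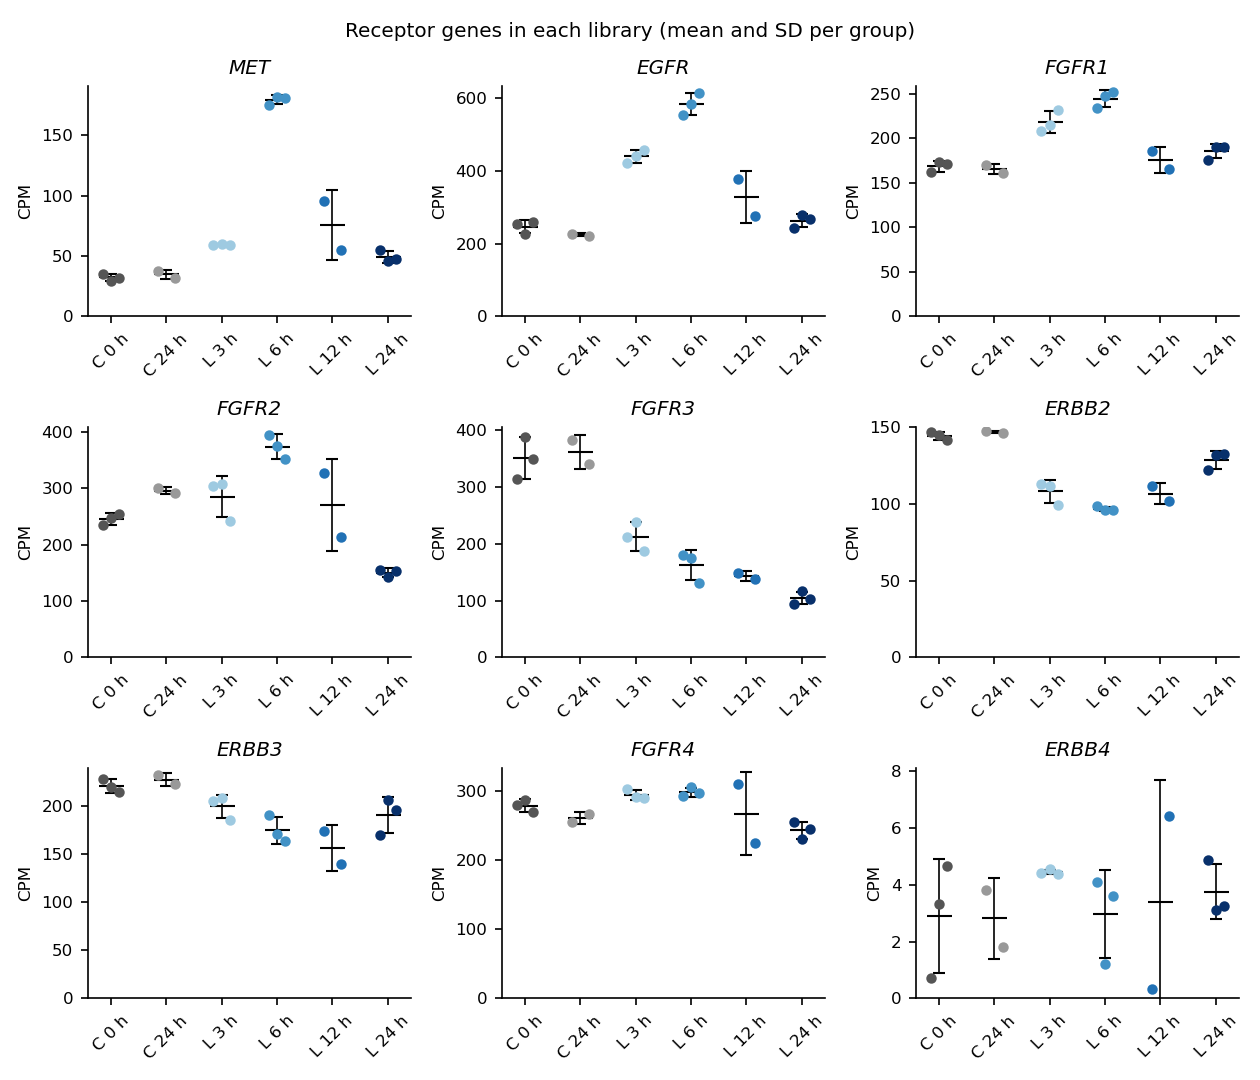
CPM of 9 receptor genes in each library (points), with the group mean (horizontal mark) and SD (error bar, which ends at 0 for ERBB4 at 12 h), for controls (C) at 0 and 24 h and latrunculin B (L) at 3, 6, 12 and 24 h. MET, EGFR, FGFR1 and FGFR2 are highest at 6 h, FGFR3 is lowest at 24 h, and the 2 libraries of 12 h lie far apart for MET, EGFR, FGFR2 and FGFR4.

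MET (ENSG00000105976.16; GRCh38 chromosome 7, 116672196 to 116798377, plus strand), the receptor of hepatocyte growth factor, rose and then came down. It was at 35.4, 29.5 and 32.1 CPM in the libraries of control 0 h and at 37.7 and 31.9 CPM in those of control 24 h. LatB gave 59.1, 60.2 and 59.3 CPM at 3 h and 175, 182 and 181 CPM at 6 h. The 12 h libraries were at 95.9 and 54.9 CPM, and the 24 h libraries at 55.1, 46.0 and 47.6 CPM. Every LatB library lay above every control library. The log2 fold change was 0.88 at 3 h (SE 0.15, edgeR adjusted p 0.000654). At 6 h it was 2.47 (SE 0.16), or 5.56-fold, a value behind the choice of the gene, with 99.4% of all genes tested below it. At 12 h it was 1.22 (SE 0.17, edgeR adjusted p 0.000107), 0.76 without replicate 1 and 1.57 without replicate 2. At 24 h it was 0.51 (SE 0.17, edgeR adjusted p 0.0297), and this call was lost in 6 of 16 alternatives. Leaving out control 24 h replicate 1, control 24 h replicate 2 or LatB 24 h replicate 1 gave adjusted p of 0.0596, 0.199 and 0.0865. Most MET TPM lay in the coding transcript MET-202, from 65.8% to 88.8% of the gene in each library.

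EGFR (ENSG00000146648.21; chromosome 7, 55019017 to 55211628, plus strand), the receptor of EGF, TGF-alpha and amphiregulin, was also highest at 6 h. It was at 252, 226 and 260.0 CPM at 0 h and at 227 and 222 CPM in control 24 h. The libraries reached 421, 440.4 and 456 CPM at 3 h and 552, 582 and 612 CPM at 6 h. They were at 377 and 276 CPM at 12 h and 242, 279 and 268 CPM at 24 h. The groups of 3, 6, 12 and 24 h each lay above their own control without overlap. The duct genes summed to between 3166 and 3200 CPM in the 6 h libraries, where MET, EGFR, FGFR1 and FGFR2 were highest, against 2337 to 2409 CPM in the controls. The 8 endocrine genes summed to between 101 and 160.0 CPM at 6 h, against 38.2 to 87.0 CPM in the controls, and the part of either in these levels was not tested. The log2 fold change was 0.84 at 3 h (SE 0.10, edgeR adjusted p 2.56e-05), 1.24 at 6 h (SE 0.10, edgeR adjusted p 6.58e-07) and 0.41 at 12 h (SE 0.11, edgeR adjusted p 0.00899). Without replicate 1 the 12 h change was 0.17 and was not called (edgeR adjusted p 0.175), and without replicate 2 it was 0.61. At 24 h the change of 0.23 (SE 0.11) missed the threshold, with an edgeR adjusted p of 0.107.

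The other ERBB genes went down or stayed low. ERBB2 (ENSG00000141736.14; chromosome 17, 39687914 to 39730426) was at 147, 144.8 and 141 CPM at 0 h and 147 and 146 CPM in control 24 h. It fell to 113, 112 and 99.4 CPM at 3 h and to 98.4, 96.1 and 96.3 CPM at 6 h. It was at 112 and 102 CPM at 12 h and at 122, 132 and 133 CPM at 24 h, below every control library throughout. The log2 fold change was -0.42 at 3 h (SE 0.05, edgeR adjusted p 6.34e-05), -0.57 at 6 h (SE 0.05, edgeR adjusted p 2.92e-06) and -0.44 at 12 h (SE 0.06, edgeR adjusted p 0.00012), the last being -0.50 without replicate 1 and -0.37 without replicate 2. The smaller change of -0.19 at 24 h (SE 0.06, edgeR adjusted p 0.0203) lost its call in 7 of 16 alternatives, among them leaving out either control 24 h library (edgeR adjusted p 0.106 and 0.0761) or LatB 24 h replicate 1 (0.0709).

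ERBB3 (ENSG00000065361.17; chromosome 12, 56076799 to 56103505) was at 229, 219 and 215 CPM at 0 h and 233 and 223 CPM in control 24 h. It was at 205, 208 and 186 CPM at 3 h, 191, 171 and 163 CPM at 6 h and 174 and 139.5 CPM at 12 h. At 24 h it was at 169.9, 207 and 196 CPM. Each LatB group lay below its control without overlap. The change was called at 6 h (-0.34, SE 0.09, edgeR adjusted p 0.00779) and at 12 h (-0.50, SE 0.10, edgeR adjusted p 0.00191), where it was -0.67 without replicate 1 and -0.35 without replicate 2. Neither -0.15 at 3 h (SE 0.09, edgeR adjusted p 0.243) nor -0.25 at 24 h (SE 0.10, edgeR adjusted p 0.0542) passed, although 9 of 16 alternatives called the latter. Transcripts not classed as protein coding held from 28.6% to 34.8% of ERBB3 TPM at 0 h and from 18.8% to 21.8% at 6 h.

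ERBB4 (ENSG00000178568.16; chromosome 2, 211375717 to 212538841), a neuregulin receptor, was scarce. It ran from 0.350 to 6.43 CPM, both extremes being the 12 h libraries, with at most 190 estimated reads. It was not called in any comparison (edgeR adjusted p from 0.576 to 0.999), and the spread between replicates was too wide to show a change at this depth. The summed TPM of the 4 ERBB genes stayed between 174 and 193 in the 0 h, 3 h, 6 h and control 24 h libraries and between 146 and 166 in the 12 and 24 h libraries of LatB.

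FGFR3 (ENSG00000068078.20; chromosome 4, 1793293 to 1808872, plus strand) was lower at every time. It was at 314, 388 and 349 CPM at 0 h and at 382 and 340.3 CPM in control 24 h. It was at 212, 238 and 188 CPM at 3 h, at 180.4, 174 and 131 CPM at 6 h and at 149 and 138 CPM at 12 h. At 24 h it was at 94.2, 116 and 103 CPM. Each group of LatB libraries lay below its control without overlap. The log2 fold change was -0.72 at 3 h (SE 0.12, edgeR adjusted p 0.000637), -1.11 at 6 h (SE 0.13, edgeR adjusted p 1.42e-05) and -1.29 at 12 h (SE 0.15, edgeR adjusted p 2.2e-05). At 24 h it was -1.79 (SE 0.14, edgeR adjusted p 1.33e-06), or 0.289 of the control, with 1.53% of all genes below it. Each of these 4 changes passed an adjusted p of 0.05 in every refit, though the one at 3 h is smaller than 1 on the log2 scale. The 12 h change was -1.35 without replicate 1 and -1.23 without replicate 2. The summed epithelial level given above was lower in the same libraries, while EPCAM alone was not lower at 3 and 6 h. The part of the epithelial level in this result was not tested.

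FGFR2 (ENSG00000066468.24; chromosome 10, 121478332 to 121598458, minus strand), the receptor of FGF7 and FGF10 in its IIIb form, went up and then down. It was at 234, 247 and 255 CPM at 0 h and at 300.3 and 291 CPM in control 24 h. It was at 304, 306 and 242 CPM at 3 h and at 395, 375 and 351 CPM at 6 h, above every control. The 12 h libraries were at 327 and 213 CPM, and the 24 h libraries at 156, 142 and 154 CPM, below every other library. The rise of 0.61 at 6 h was called (SE 0.13, edgeR adjusted p 0.00159), but not against control 24 h (0.34, edgeR adjusted p 0.0715). The fall of -0.97 at 24 h was called (SE 0.14, edgeR adjusted p 0.000131). It passed an adjusted p of 0.05 in every refit, though it is smaller than 1 on the log2 scale. Against control 0 h the fall was -0.70. Control 24 h itself lay above control 0 h without overlap, by 0.27 (SE 0.14, edgeR adjusted p 0.666), which was not called. At 3 h the change was 0.21 (SE 0.13, edgeR adjusted p 0.225). At 12 h it was 0.14 (SE 0.14, edgeR adjusted p 0.478), -0.21 without replicate 1 and 0.42 without replicate 2, which was called (edgeR adjusted p 0.0113).

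FGFR1 (ENSG00000077782.23; chromosome 8, 38400215 to 38468834, minus strand) was at 162, 173 and 171 CPM at 0 h and 169.6 and 161 CPM in control 24 h. It was at 208, 215 and 232 CPM at 3 h and 234, 248 and 252 CPM at 6 h, above every control. The libraries were at 186 and 166 CPM at 12 h and at 176, 190.2 and 190.0 CPM at 24 h. The rise was 0.37 at 3 h (SE 0.06, edgeR adjusted p 0.000287) and 0.54 at 6 h (SE 0.06, edgeR adjusted p 9.63e-06). The changes of 0.06 at 12 h (edgeR adjusted p 0.497, from -0.028 without replicate 1 to 0.14 without replicate 2) and 0.17 at 24 h (edgeR adjusted p 0.0575) were not called. On the log2(TPM + 1) scale the 3 h change was 0.11 (limma adjusted p 0.525), and the call was lost. Between 47.6% and 66.3% of FGFR1 TPM lay in transcripts not classed as protein coding.

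FGFR4 (ENSG00000160867.15; chromosome 5, 177086905 to 177098144, plus strand), the receptor that works with beta-Klotho for FGF19, moved least of the FGF receptors. It was at 279.7, 287 and 269 CPM at 0 h and 255 and 267 CPM in control 24 h. It was at 303, 291 and 289.8 CPM at 3 h, 292, 305 and 297 CPM at 6 h, 309.6 and 225 CPM at 12 h and 254, 229.9 and 245 CPM at 24 h. No change against control was called: the log2 fold changes were 0.08 (SE 0.09), 0.10 (SE 0.09), -0.06 (SE 0.10) and -0.10 (SE 0.10) in time order, with edgeR adjusted p from 0.39 to 0.653. Without replicate 1 of 12 h it was called lower (-0.31, edgeR adjusted p 0.00176), and without replicate 2 it was 0.15 (edgeR adjusted p 0.0775).

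**Figure D3:**
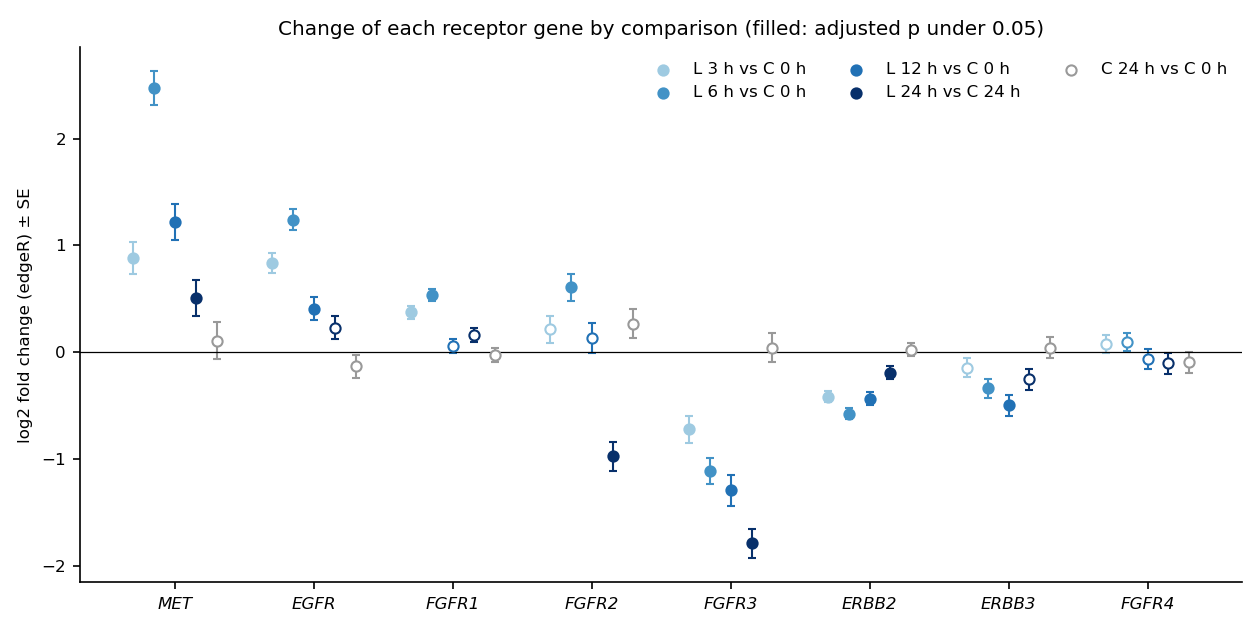
Log2 fold change with its SE (edgeR) of 8 receptor genes in the 4 comparisons of latrunculin B (L) with its control (C) and between the controls, with filled points for an adjusted p under 0.05. MET peaks at 2.47 at 6 h, FGFR3 declines from -0.72 at 3 h to -1.79 at 24 h, FGFR2 turns from 0.61 at 6 h to -0.97 at 24 h, and no point of the control comparison is filled. The filled point of MET at 6 h is a description, since that level was behind the choice of the gene.

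The make-up of the FGF receptor family shifted with these changes. FGFR3 held from 25.7% to 29.5% of the summed FGF receptor TPM in the controls and from 10.2% to 11.9% at 24 h of LatB. FGFR1 held from 16.6% to 19.7% in the controls and from 28.8% to 36.9% at 24 h. Of that FGFR1 TPM, 52.4% to 62.5% in the controls and 59.8% to 66.3% at 24 h lay in transcripts not classed as protein coding. FGFR2 held from 21.7% to 27.4% in the controls, from 32.4% to 34.1% at 6 h and from 19.3% to 22.7% at 24 h. The shares of FGFR3 and FGFR1 at 24 h did not overlap with the controls, and these shares add up to a whole, so one cannot move without the others.

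The division of FGFR2 between its exons was set beside this. Exon IIIb was held by 6 of the deposited FGFR2 transcripts and exon IIIc by 9, and the IIIb share ran from 41.1% to 52.7% over the libraries. Transcripts with both or neither exon were left out. At 0 h the IIIb and IIIc transcripts averaged 41.7 and 45.2 TPM, where the whole gene averaged 128 TPM. At 24 h of LatB they averaged 23.4 and 31.8 TPM, where the gene averaged 79.5 TPM. The share of IIIb was 47.7%, 49.2% and 47.1% at 0 h and 48.1% and 47.3% in control 24 h. It was 46.6%, 50% and 43.9% at 3 h, and 51.3%, 50.6% and 52.7% at 6 h. At 12 h it was 49.1% and 46.7%, and at 24 h 41.9%, 44.4% and 41.1%. The 6 h libraries were the highest of all, and the 24 h libraries overlapped only with one library of 3 h. Over all times, the share was 47.1% ± 3.93 (SD, n = 11) with LatB and 47.9% ± 0.828 (SD, n = 5) in the controls, a difference of -0.782 percentage points (two-sided exact permutation test, p = 0.68). That test pools times which lay on both sides of the controls. A single time against its own control group cannot go below p = 0.1 in an exact test with these group sizes.

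Both FGFR2 forms rose and fell with the gene. IIIb transcripts averaged 41.7 TPM at 0 h, 61.8 TPM at 6 h and 23.4 TPM at 24 h, and IIIc transcripts 45.2, 58.2 and 31.8 TPM. FGFR3 had a similar division, with IIIb shares from 43.0% to 56.3% over all libraries. Among the FGFR1 transcripts counted as IIIb or IIIc, almost all TPM was IIIc, with an IIIb share of at most 4.4% in a library. Exon IIIb was held by 1 deposited FGFR1 transcript and exon IIIc by 13. The IIIc transcripts averaged 44.6 TPM at 0 h and 46.3 TPM at 24 h of LatB. The whole FGFR1 gene averaged 106 and 123 TPM at these times, so most of its level was outside this division. Salmon divides reads among transcripts that share exons, so these shares carry an uncertainty that the files do not give.

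**Figure D4:**
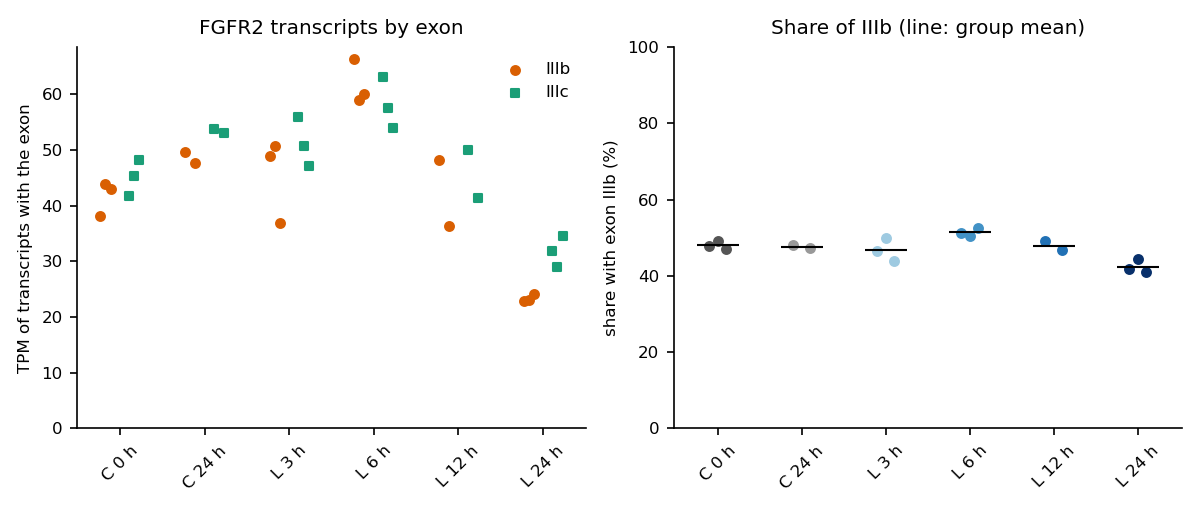
Left, summed TPM of the FGFR2 transcripts that hold exon IIIb (circles) or exon IIIc (squares) in each library; right, the share of IIIb in percent with the group mean as a line, for controls (C) and latrunculin B (L). Both forms are highest at 6 h and lowest at 24 h, and the share runs from 41.1% to 52.7%.

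The time course of the drug was tested by setting LatB 24 h against LatB 6 h, which shares its libraries with the comparisons above. Of the 9 genes, 1 was called higher and 6 lower, MET being among the 6, where 19.0% of all genes were called higher and 18.9% lower. That even balance rests on the scaling: without scaling between libraries 5224 genes were higher and 1852 lower, and on log2(TPM + 0.1) 3165 and 1579. ERBB2 was higher by 0.41 (SE 0.05, edgeR adjusted p 6.43e-05). MET was at -1.86 (SE 0.15), which rests on the 6 h level and is given without a test. FGFR2 was at -1.31 (SE 0.13, edgeR adjusted p 6.23e-06), EGFR at -1.15 (SE 0.10) and FGFR3 at -0.63 (SE 0.13). FGFR1 (-0.40, SE 0.06) and FGFR4 (-0.30, SE 0.09, edgeR adjusted p 0.0148) were lower too. The call was lost in 3 of 16 alternatives for FGFR1 and in 2 of 16 for FGFR4. Their smallest changes over the alternatives were -0.17 and -0.16. The change of ERBB3, 0.12 (SE 0.09), missed the threshold with an edgeR adjusted p of 0.302.

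The effect at 24 h minus the effect at 3 h, each against its own control, was called for 4 of the 9 genes, 1 higher and 3 lower, where 14.6% of all genes were called higher and 13.4% lower. Unscaled libraries moved that balance from 2431 and 2234 to 3583 and 1608 calls. FGFR2 differed by -1.19 (SE 0.19, edgeR adjusted p 0.000553), FGFR3 by -1.07 (SE 0.19, edgeR adjusted p 0.00103) and EGFR by -0.61 (SE 0.14, edgeR adjusted p 0.0067). ERBB2 differed by 0.23 (SE 0.08, edgeR adjusted p 0.05), just inside the threshold. For MET the difference was -0.37 (SE 0.23, edgeR adjusted p 0.245).

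Among the ligands, the ligand of MET moved early with its receptor. HGF was at 2.43, 1.41 and 1.87 CPM at 0 h, at 5.50, 6.03 and 14.6 CPM at 3 h and at 4.53, 8.14 and 10.7 CPM at 6 h, with no overlap. It was called higher at 3 h (2.20, SE 0.67, edgeR adjusted p 0.0237) and 6 h (2.03, SE 0.67, edgeR adjusted p 0.0261). Leaving out control 0 h replicate 2 or 3 ended both calls, as did leaving out LatB 3 h replicate 3 (1.58, edgeR adjusted p 0.124) or LatB 6 h replicate 2 or 3 (1.98 and 1.72, edgeR adjusted p 0.0584 and 0.0921). The mesenchymal genes summed to 266, 279 and 447 CPM in the same 3 h libraries and to 229, 246 and 306 CPM at 6 h, against 177 to 278 CPM at 0 h. At both times the library with the most HGF also had the highest mesenchymal sum. At 12 h HGF was at 3.28 and 0.507 CPM in replicates 1 and 2, where the mesenchymal genes summed to 221 and 1059 CPM. In the 24 h libraries of LatB HGF was at 0.375, 3.25 and 1.70 CPM, beside mesenchymal sums of 258, 191 and 172 CPM. The part of these cells in the HGF level was not tested. MST1, the ligand of MST1R, was called lower at 6, 12 and 24 h, by -0.49, -0.53 and -0.83, but no call held without each library in turn: the smallest change was -0.43 at 6 h (without control 0 h replicate 2), -0.23 at 12 h (without replicate 2) and -0.60 at 24 h (without control 24 h replicate 1).

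Of 10 ERBB ligand genes tested, 2 were higher at 3 h, 1 was higher and 2 lower at 6 h, 2 were lower at 12 h and 1 at 24 h. Of all genes tested, 16.8% were higher and 14.7% lower at 3 h, and 22.9% and 20.4% at 6 h. These shares were 19.1% and 16.8% at 12 h and 21.9% and 18.8% at 24 h. AREG, which encodes amphiregulin, an EGFR ligand, was at 82.9, 77.1 and 78.1 CPM at 0 h, 194, 203 and 204 CPM at 3 h and 174, 169 and 175 CPM at 6 h. Its rises of 1.34 (SE 0.16, edgeR adjusted p 3.75e-05) and 1.12 (SE 0.16) came back to -0.27 at 12 h and -0.39 at 24 h, which were not called. NRG3 was called higher at 3 h by 0.28 and lower at 12 h by -0.76. HBEGF, another EGFR and ERBB4 ligand, was lower at 6 h (-1.37, SE 0.33, edgeR adjusted p 0.00464).

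Of 18 FGF genes, 10 passed the filter, 0 were called at 3 h by edgeR (2 at an unadjusted p under 0.05), 3 were called higher at 6 h, 1 higher at 12 h and 1 lower at 24 h. Beside them, 16.8% of all genes were called higher and 14.7% lower at 3 h, and 22.9% higher at 6 h. At 12 h 19.1% were higher, and at 24 h 18.8% were lower. FGF10, a ligand of the IIIb form of FGFR2, was at 7.53, 6.33 and 6.40 CPM at 0 h and at 11.6, 11.4 and 9.41 CPM at 6 h, a rise of 0.68 (SE 0.17, edgeR adjusted p 0.00539). FGF2 was at 1.44 to 2.23 CPM at 0 h and at 2.10 and 4.74 CPM at 12 h, so the groups overlapped, and its called change of 0.92 was 0.21 without replicate 2 (edgeR adjusted p 0.679). The FGF2 libraries ran from 0.784 to 1.28 CPM at 3 h and from 3.03 to 3.48 CPM at 6 h, neither overlapping with 0 h. At 24 h they ran from 2.43 to 3.58 CPM with LatB and from 1.80 to 2.19 CPM in the control. Of 16 co-receptor and processing genes tested, 4 were higher and 2 lower at 6 h, against 22.9% and 20.4% of all genes. At 24 h 2 were higher and 7 lower, against 21.9% and 18.8%. CD44, a co-receptor of MET, was called lower in all 4 comparisons, between -0.71 and -0.52, but it also differed between the controls by -0.73 (edgeR adjusted p 0.0509). Against control 24 h its changes at 3, 6 and 12 h were 0.088, 0.017 and 0.21, which were not called, and without replicate 1 of 12 h the change against control 0 h was -0.42 (edgeR adjusted p 0.0785). NRP1, which encodes neuropilin-1, was higher at 6 h by 0.39 and lower at 12 and 24 h by -0.83 and -0.73. SDC1, a heparan sulphate proteoglycan, was at -0.75 at 6 h and 0.62 at 24 h against their own controls, and neither was called against the other control (-0.31 and 0.18).

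Inside the cell, of 22 adaptor and effector genes, all tested, 15 were higher and 2 lower at 3 h, 12 and 1 at 6 h, 4 and 5 at 12 h, and 3 and 1 at 24 h. The shares over all genes were 16.8% higher and 14.7% lower at 3 h and 22.9% and 20.4% at 6 h, and the median log2 fold change of the list was 0.26 and 0.28 at these times. Over all genes 19.1% were higher and 16.8% lower at 12 h, and 21.9% and 18.8% at 24 h. PIK3R1, the regulatory subunit of PI3-kinase, was higher throughout, by 1.20, 1.41, 1.16 and 0.90 in time order (SE 0.08 to 0.09). BRAF, a kinase of the MAPK cascade, rose by 0.95 at 3 h and 0.99 at 6 h (SE 0.10 each) and was at 0.13 and -0.12 afterwards. FRS2, the docking protein of FGF receptors, rose by 0.35 at 3 h and 0.34 at 6 h. GAB2 rose by 0.74 and HRAS by 0.80 at 6 h.

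Of 20 feedback and negative regulators, 10 were higher and 0 lower at 3 h by edgeR (13 at an unadjusted p under 0.05), 12 and 1 at 6 h, 4 and 3 at 12 h, and 5 and 1 at 24 h. Among all genes 16.8% were higher and 14.7% lower at 3 h, and 22.9% and 20.4% at 6 h. For 12 h these shares were 19.1% and 16.8%, and for 24 h 21.9% and 18.8%. DUSP4, a phosphatase of MAP kinases, was at 43.5, 38.7 and 43.3 CPM at 0 h and 123, 131 and 165 CPM at 3 h. It was higher in all 4 comparisons, by 1.74, 1.18, 1.13 and 0.68, the change at 12 h being 1.46 without replicate 1 and 0.69 without replicate 2, and the 24 h call being lost without control 24 h replicate 1 (0.60, edgeR adjusted p 0.106). LRIG3, of the LRIG family of transmembrane proteins, rose by 0.82, 1.11 and 0.90 at 3, 6 and 12 h and was at 0.03 at 24 h. Its action on the receptors was not tested. IL17RD, an inhibitor of FGF signalling, was higher at 6, 12 and 24 h by 0.90, 0.58 and 0.60 (0.30 without replicate 1 of 12 h and 0.82 without replicate 2).

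The splicing factors that choose between exons IIIb and IIIc were followed too. ESRP1, which favours IIIb, was higher at 6 h by 0.17 and at 24 h by 0.20, and ESRP2, its relative, was lower at 24 h by -0.40. The calls of ESRP1 were lost without control 0 h replicate 2, LatB 6 h replicate 1 or LatB 6 h replicate 3 at 6 h (0.11, 0.14 and 0.14) and without control 24 h replicate 2 at 24 h (0.18), and that of ESRP2 without control 24 h replicate 1 (-0.35). PTBP1 was higher at 3 and 6 h, by 0.48 and 0.56. MBNL2 was lower in all 4 comparisons, by values from -1.18 to -0.60, and MBNL1 was lower from 6 h on, by -0.28, -0.58 and -0.35. Of the 6 genes tested, 1 was higher and 2 lower at 3 h, 2 and 3 at 6 h, 0 and 3 at 12 h (4 at an unadjusted p under 0.05) and 2 and 4 at 24 h. The shares of all genes higher and lower were 16.8% and 14.7% at 3 h and 22.9% and 20.4% at 6 h. They were 19.1% and 16.8% at 12 h and 21.9% and 18.8% at 24 h. Between the controls edgeR called 0 genes of these ligand, co-receptor, effector, regulator and splicing lists, where an unadjusted p under 0.05 was seen for 3 ERBB ligands, 1 FGF ligand, 4 co-receptors, 2 effectors and 2 regulators.

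**Figure D5:**
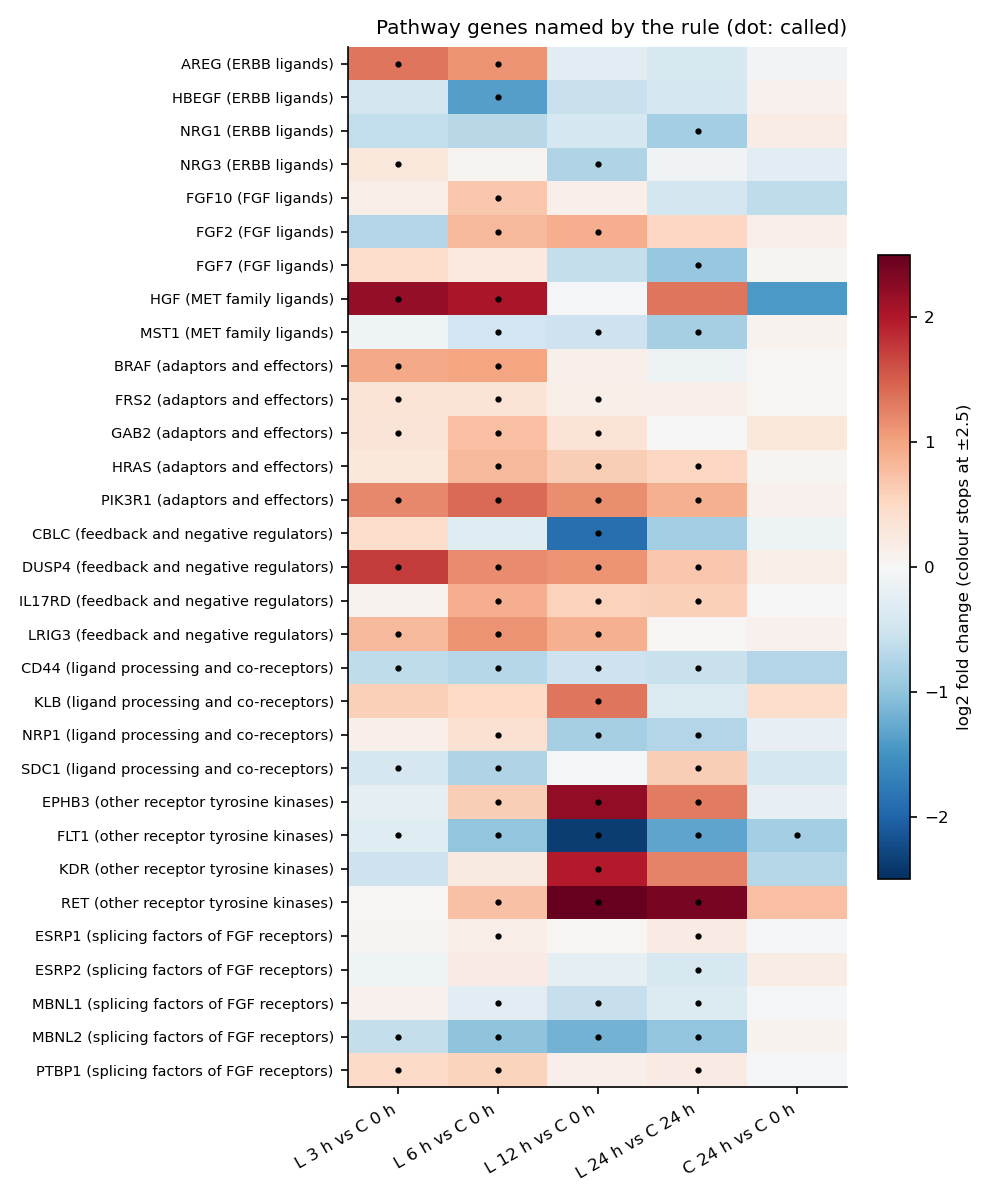
Log2 fold change (colour, red higher and blue lower) of the pathway genes named by the fixed rule, by comparison of latrunculin B (L) and control (C), with a dot where edgeR called the gene. AREG, HGF, BRAF and PIK3R1 are red at 3 h and 6 h, MBNL2 and CD44 are blue in all 4 drug comparisons, and RET and EPHB3 are red at 12 and 24 h.

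The genes whose level followed MET most closely over the 16 libraries were sought among 10521 genes with a mean log2 CPM of at least 3. By Pearson correlation of log2 CPM these were CNKSR3 (0.978), FNDC3B (0.967), MMP16 (0.967), ZBTB33 (0.966) and SEMA3A (0.966). All 5 were highest at 6 h: SEMA3A, a semaphorin, averaged 55.7 CPM at 0 h, 258 CPM at 6 h and 78.0 CPM at 24 h, and MMP16, a membrane metalloprotease, 49.8, 201 and 79.97 CPM. Among the receptor genes, EGFR had 0.896 with MET and FGFR1 0.837, while ERBB2 had -0.861. These values share the same libraries and mostly reflect the group means, and they are given as a description.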

How the data were processed

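The authors deposited a salmon transcript table for each of the 16 libraries, holding estimated counts, TPM values and effective lengths for 177456 transcripts, made from poly(A) RNA. The submitters' processing notes name Salmon 1.3.0 and DESeq2, while the study's methods describe STAR and gene counts, so the upstream settings were taken as not given in the sources used here. The authors' table of fold changes and p-values, with its 16 columns of per-sample values, was not used.

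Transcripts were joined to genes by identifier through GENCODE release 44 on GRCh38: 165533 matched, 151923 in the same version, and the rest held from 2.92% to 3.17% of the reads of a library. The deposited estimated counts were summed per gene, rounded, and tested with edgeR 4.0.16 in R 4.3.3 (quasi-likelihood test, two-sided, TMM scaling, filterByExpr, all 6 groups in 1 fit), with Benjamini-Hochberg adjustment over all 16705 genes tested. Calls were made where the adjusted p was below 0.05. The SE is the log2 fold change divided by the square root of F. CPM was computed on TMM-scaled library sizes, which were 0.947 to 1.05 times the totals, and the deposited TPM was summed per gene. Strand use is not stated, and salmon shares reads among similar transcripts. The exons IIIb and IIIc were found in GENCODE by their order and lengths (their sequences are not reported here), and the shares were compared by an exact permutation test over libraries.

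The members, the pathway and marker lists and the tests were chosen with earlier results of these data known. From each pathway list the rule named the 4 genes with the largest called change at any of the 4 times, with groups that did not overlap and a mean log2 CPM of at least 0, and ESRP1, ESRP2, HGF, MST1 and FRS2 in any case. The scripts were tested on simulated data. The alternatives changed the scaling (RLE or none), the filter (none, or at least 50 counts on average), the length offset, the samples fitted, the control used and the threshold, added a block for the replicate number, or used limma-trend (limma 3.58.1) on log2(TPM + 1) and log2(TPM + 0.1) or DESeq2 1.42.0, and each library was left out in turn. After the data were seen, the named pathway genes were also followed without each library and against the other control.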

Additional observations from a re-analysis of the deposited data

Results flagged for a closer look

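For 4 of the receptor genes the effect of latrunculin B at 24 h differed from that at 3 h by the edgeR test of the difference itself. FGFR2 differed by -1.19 (SE 0.19, adjusted p 0.000553): it was at 0.21 at 3 h, which was not called, and at -0.97 at 24 h. Its level in control 24 h was above that in control 0 h by 0.27, which was not called. FGFR3 differed by -1.07 (SE 0.19, adjusted p 0.00103), from -0.72 at 3 h to -1.79 at 24 h. EGFR differed by -0.61 (SE 0.14, adjusted p 0.0067), from 0.84 at 3 h to 0.23 at 24 h. ERBB2 differed by 0.23 (SE 0.08, adjusted p 0.05), from -0.42 to -0.19, and this call was lost in 11 of 21 alternatives. The control differs between the times, 0 h with 3 libraries and 24 h with 2, and leaving out control 24 h replicate 1 or 2 moved the difference of ERBB2 to adjusted p of 0.126 and 0.123.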

How the results depend on the processing

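Of 56 log2 fold changes of the receptor genes, with 944 values under the alternatives, 32 were called, and none of those changed sign. Of those called, 8 lost the call at least once. The counts here include MET at 6 h and for LatB 24 h against LatB 6 h, which rest on the level behind its choice. Where calls also needed a log2 change of 1 or more, the receptor genes called were 0 at 3 h, 3 at 6 h, 2 at 12 h, 1 at 24 h, 3 for LatB 24 h against LatB 6 h and 2 for the difference of effects, and at an adjusted p under 0.01 they were 2 at 24 h. Leaving out 1 library, the 24 h count ran from 2 to 5, with 2 when either control 24 h library was left out.

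The changes of sign among the receptor genes were all in changes that were not called. With control 24 h as the reference, FGFR2 was at -0.056 at 3 h and -0.13 at 12 h, and FGFR4 at 0.032 at 12 h. FGFR4 was at -0.076 and -0.077 at 3 h and -0.11 at 6 h on the log2 TPM scales, and at -0.017 at 6 h with the length offset. The difference of effects of FGFR1 was 0.19 with the length offset, and 0.23 and 0.24 on log2(TPM + 1) and log2(TPM + 0.1). Between the controls, ERBB2 was at -0.083 with the length offset and -0.074 and -0.075 on the log2 TPM scales. Leaving out single libraries, the 12 h changes ran from -0.028 to 0.14 in FGFR1, from -0.21 to 0.42 in FGFR2 and from -0.31 to 0.15 in FGFR4. Between the controls they ran from -0.016 to 0.22 in MET, from -0.064 to 0.0083 in FGFR1 and from -0.042 to 0.12 in FGFR3. The causes were not tested.

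Deviations from the group means were compared between libraries of different groups by their correlation. Same-numbered pairs ran from -0.241 to 0.116 (median -0.023, 36 pairs, 2 of them over 0.1). Differently numbered pairs ran from -0.137 to 0.241 (median 0.012, 70 pairs, 4 of them over 0.1). In groups of 2 or 3 libraries such deviations are tied to each other, so these values cannot decide whether the numbers pair the libraries. With the replicate block, FGFR3 was at -0.013 between the controls, the 24 h count was 3 in place of 4, and the FGFR2 share of IIIb had a permutation p of 0.709. For the 31 named pathway genes, chosen to be checked after the data were seen, 24 of 76 called changes were lost without 1 library and 17 against the other control. With control 24 h as the reference 6 changed sign: CD44 at 3, 6 and 12 h (0.088, 0.017 and 0.21), SDC1 at 3 h (0.017), FLT1 at 3 h (0.55) and RET at 6 h (-0.0036). The groups of 12 h and control 24 h hold 2 libraries each, and ERBB4 and MST1R have too few reads to show a change.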

Other observations

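Other receptor tyrosine kinases gave values that belong to none of the comparisons of the 3 families. Of 48 such genes, 42 were tested, and 6 were called higher and 3 lower at 3 h, 9 and 8 at 6 h, 10 and 6 at 12 h, and 8 and 8 at 24 h by edgeR, while 16.8% and 14.7%, 22.9% and 20.4%, 19.1% and 16.8%, and 21.9% and 18.8% of all genes tested were called higher and lower at these times. RET, the receptor of the GDNF ligands, was at 0.84, 0.94 and 0.93 CPM at 0 h and at 1.53 and 1.503 CPM in control 24 h. It was at 4.72 and 5.89 CPM at 12 h and at 7.37, 7.18 and 9.01 CPM at 24 h, a log2 fold change of 2.37 (SE 0.19, adjusted p 1.79e-06) against control 24 h. EPHB3, an ephrin receptor, was higher at 12 and 24 h by 2.21 and 1.31, the former being 2.62 without replicate 1 of 12 h and 1.63 without replicate 2. KDR, a VEGF receptor, was at 9.01 and 37.0 CPM at 12 h, and its called change of 1.99 was 2.67 without replicate 1 and 0.63 without replicate 2 (adjusted p 0.46). FLT1, another VEGF receptor, was lower in all 4 comparisons, from -0.30 at 3 h to -2.38 at 12 h, and also between the controls, by -0.85. Against control 24 h it was higher at 3 h by 0.55 (adjusted p 0.00147) and not called at 6 h (-0.15). The sum of 8 markers of endocrine cells came to 87.0 and 74.0 CPM in replicates 1 and 2 of control 24 h. It was 102 and 131 CPM at 12 h and 116, 360 and 326 CPM at 24 h of latrunculin B, in the order of the RET values above. The part of these markers in the level of RET was not tested.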
